A study of Mus musculus with 19 samples.

Results

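The AMPA and NMDA receptor subunit genes were measured in mouse hippocampus: Gria1 to Gria4, which encode the 4 AMPA receptor subunits, and Grin1, Grin2a, Grin2b, Grin2c, Grin2d and Grin3a, which encode 6 NMDA receptor subunits. A probe was assigned to a subunit when its accession belonged to a RefSeq transcript of that gene, whatever its signal. This gave 18 probes for 10 genes, among 56605 probes on the array and 25599 genes tested. All 18 probes were well above background on all 19 arrays and none was saturated, so no subunit was lost to the filter on dim probes. Total hippocampal RNA of 3 groups of 8-month-old mice was hybridised, 1 array per sample: wild-type (WT) littermates given vehicle (n = 6), APP/PS1 mice given vehicle (n = 7) and APP/PS1 mice given urolithin A (UA, n = 6). UA, a gut bacterial metabolite of dietary ellagitannins, was dissolved in DMSO and gavaged at 200 mg/kg/day from 6 to 8 months of age, while both vehicle groups received DMSO. APP/PS1 is a transgenic strain that deposits amyloid, whose APP and presenilin transgenes are driven by the mouse prion protein promoter, and the WT littermates carry neither. The labels do not give sex. Array numbers match the mouse numbers stated for the design, so an array was taken as a single mouse, and nothing in the labels says that animals were pooled.

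AMPA and NMDA receptors are tetrameric cation channels that open when glutamate binds and carry most fast excitatory transmission in the hippocampus. AMPA receptors carry the rapid current, and the edited GluA2 subunit encoded by Gria2 makes them nearly impermeable to calcium. NMDA receptors need the GluN1 subunit encoded by Grin1, a co-agonist (glycine or D-serine) and depolarisation, which lifts a magnesium block. The calcium they admit triggers synaptic plasticity by changing the number of AMPA receptors at the synapse. Soluble amyloid-β is known to impair hippocampal plasticity and to act on both receptor types.

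Levels are log2 of the background-subtracted array signal minus the log2 75th percentile of its array, and a difference of 1 is a 2-fold change. Levels of different probes cannot be set against each other. The 75th percentile of the signal lay between 663 and 1776 intensity units, and the share of probes well above background between 51.4% and 59.4%. All 6 WT arrays were on slide 1 with 2 of the APP/PS1 vehicle arrays. The other 5 vehicle arrays shared slide 2 with 3 UA arrays, and the remaining 3 UA arrays were on slide 3. All 9 neuron markers and 9 of 10 pyramidal and granule cell markers were measured. Choroid plexus markers, 10 genes of a tissue that borders the hippocampus, ran from a mean log2 level of -2.14 to 2.85 in WT arrays, from -4.04 to 3.45 in APP/PS1 vehicle arrays and from -2.76 to 2.92 in UA arrays. WT replicate 3 was the WT array at 2.85, while the other 5 WT arrays lay between -2.14 and -0.68. APP/PS1 vehicle replicate 3 had the lowest 75th percentile, the smallest share of probes well above background and the lowest choroid plexus level, and values without it are given beside the results it moves most. In bulk tissue, fewer cells that express a subunit cannot be told apart from less RNA per cell.

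RefSeq promoter windows (assembly GRCm38.p6) were found for 5 of the 10 genes, and the 250 bases before the start are shown for the 2 whose window precedes the outermost annotated start. These are Grin1, the obligatory NMDA subunit, and Gria4, the AMPA subunit furthest below WT in APP/PS1 vehicle mice. Both lie on the minus strand and are written 5′ to 3′ in the direction of transcription, with CpG dinucleotides in capitals.
Grin1, chr2:25319188-25319437: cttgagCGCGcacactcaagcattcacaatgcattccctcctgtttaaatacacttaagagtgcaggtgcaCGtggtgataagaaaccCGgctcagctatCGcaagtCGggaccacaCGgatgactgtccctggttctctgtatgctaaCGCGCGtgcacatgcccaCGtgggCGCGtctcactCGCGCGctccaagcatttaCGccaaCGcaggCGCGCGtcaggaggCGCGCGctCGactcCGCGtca
Gria4, chr9:4796235-4796484: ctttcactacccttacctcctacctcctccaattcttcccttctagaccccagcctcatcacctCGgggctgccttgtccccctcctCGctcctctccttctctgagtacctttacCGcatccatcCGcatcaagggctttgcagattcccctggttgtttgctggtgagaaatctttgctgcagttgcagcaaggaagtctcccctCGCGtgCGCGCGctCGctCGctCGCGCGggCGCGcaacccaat
The Grin1 window held 27 CpG and the Gria4 window 16, against a median of 6 over all 32851 mouse windows. Both had a GC content of 58.8%, and the median window had 52.4%. Searched on both strands, the E box CACGTG occurred in the Grin1 window at 181 to 176 and at 85 to 80 bases upstream and in 6.02% of all windows. The SP1 letters GGGCGG, found in 32.7% of windows, occurred 3 times in the Grin2c window and in no other of the 5. The CRE letters TGACGTCA, in 1.55% of windows, were in none of the 5. The CRE and E box letters read the same on both strands.

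APP/PS1 vehicle mice were compared with WT mice to ask what differed in the amyloid model. Gria3 fell 1.23-fold and was the only one of the 10 subunits to pass the test. None rose. All 4 AMPA subunits lay below WT, with a median log2 difference of -0.24, and the AMPA subunit Gria4 and the NMDA subunit Grin3a had the most negative differences of all 10 without passing. Among the 6 NMDA subunits 4 lay below WT and 2 above, with a median of -0.07. The test was limma's moderated test over all 19 arrays, with Benjamini-Hochberg adjustment over all genes and a threshold of 0.05. It called 1294 of 25599 genes, 5.05%, so that 1 of 10 subunits is not far from the background. With slide as a block 77 genes (0.301%) and 0 subunits were called. Within slide 1, which held 2 vehicle arrays, 23 genes (0.0898%) and 0 subunits were called. The test over all 19 arrays called 584 genes lower (2.28%) and 710 higher (2.77%). The median log2 difference of all genes was 0.0086 against -0.13 for the subunits. The 8193 genes at least as bright as the dimmest subunit had a median of -0.052. The counts of subunits below and above WT were 8 and 2, with a range of -0.63 to 0.36, while 48.6% of all genes lay below WT. They became 7 and 3 with a percentile over detected probes or with quantile normalisation, 9 and 1 with normexp background correction, and 6 and 4 with the mean of a gene's probes. With slide as a block, within slide, with replicate number as a block or with the choroid plexus level as a covariate they were 7 and 3. Without vehicle replicate 3 they were 6 and 4, and the median of the subunits was -0.056.

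**Figure D1:**
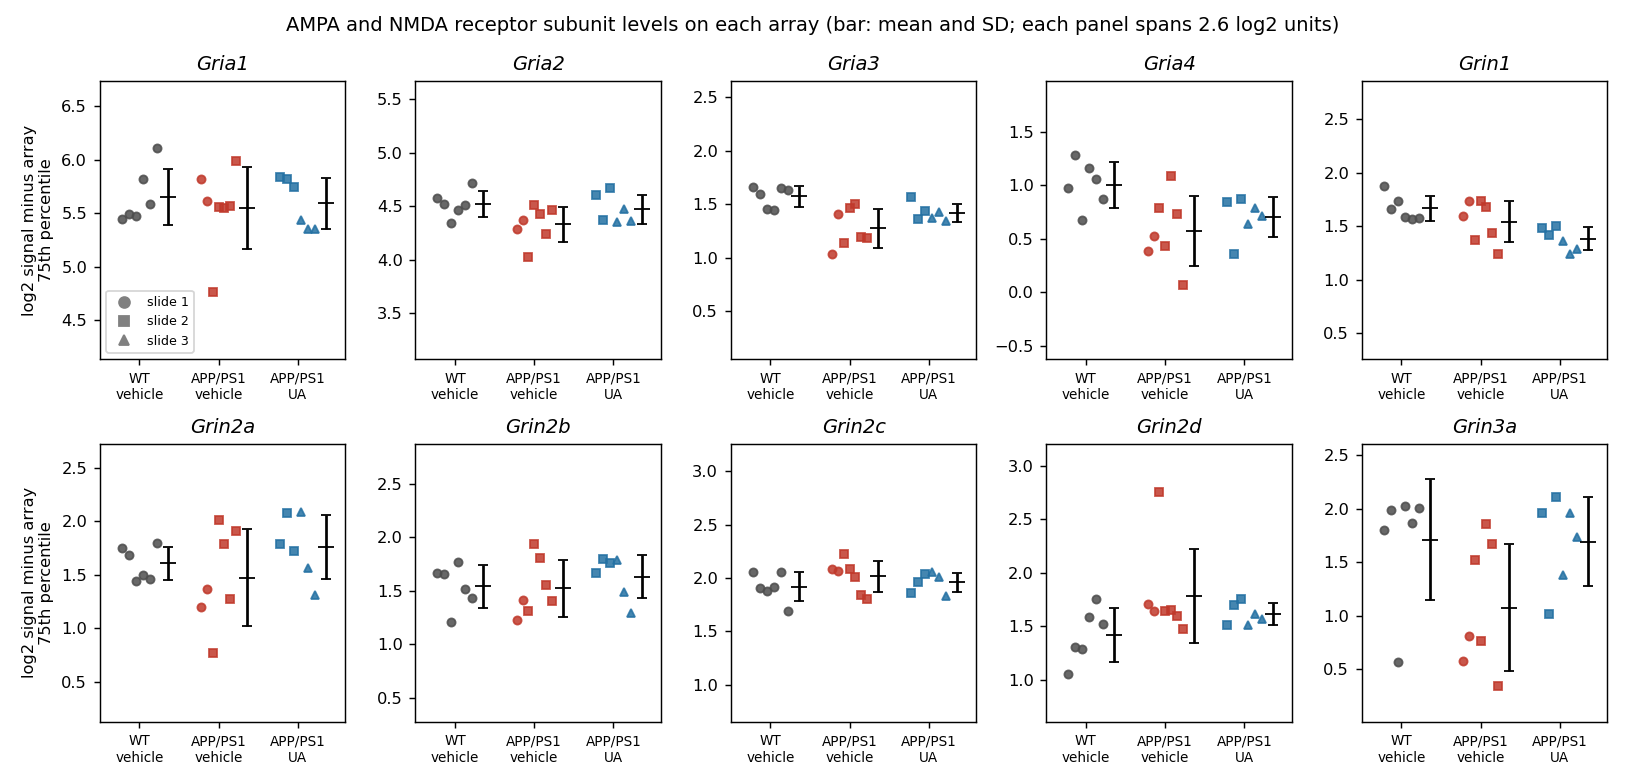
Level of each of the 10 subunits on each of the 19 arrays (log2 signal minus the array's 75th percentile), by group, with the marker shape giving the slide and the bar the group mean and SD. Gria3 is lower on most APP/PS1 vehicle arrays than on any WT array, Grin1 is lower on all 6 UA arrays than on any WT array, and Grin3a varies widely within every group.

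Gria3 encodes GluA3, which joins GluA2 in a large share of the AMPA receptors of principal neurons. At its brightest probe, A_52_P68221, WT arrays ran from 1.45 to 1.66 with a median of 1.61, APP/PS1 vehicle arrays from 1.04 to 1.50 with a median of 1.19, and UA arrays from 1.35 to 1.57 with a median of 1.40. Of the 7 vehicle arrays 5 lay below the lowest WT array, all 7 lay below the WT mean, and the groups overlapped. The means were 1.28 ± 0.18 (SD, n = 7) in APP/PS1 vehicle and 1.58 ± 0.097 (SD, n = 6) in WT mice, a log2 difference of -0.30 (SE 0.079, 95% interval -0.46 to -0.13, limma adjusted p = 0.0383). The second Gria3 probe, A_66_P132292, lay at 1.24 ± 0.17 in WT, 0.92 ± 0.17 in APP/PS1 vehicle and 1.18 ± 0.24 in UA arrays. Its difference between genotypes was -0.33 (SE 0.11), close to that of the first probe. In a fit over the 33450 single probes, of which 4.19% were called, the brightest probe kept its call (limma adjusted p = 0.0420) and the second did not pass (0.0881).

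The Gria3 call lay close to the threshold. The log2 difference stayed between -0.35 and -0.26 in every fit on the log2 scale, but the limma adjusted p rose above 0.05 in several. Within slide 1, where the 2 vehicle arrays at 1.04 and 1.41 were both below the lowest WT array, the difference was -0.35 (adjusted p = 0.192), and with slide as a block it was -0.35 (0.194). With only the 2 groups in the fit the adjusted p was 0.0952, without a filter on dim probes 0.119, and with the choroid plexus level as a covariate 0.0625 (difference -0.27). By sex-linked genes, 1 of 6 WT arrays and 3 of 7 APP/PS1 vehicle arrays were female, and with sex as a covariate the call was kept. Leaving out 1 array ended the call for APP/PS1 vehicle replicates 1 (0.0774), 6 (0.0701) and 7 (0.0701) and for WT replicates 1 (0.0653), 2 (0.0834), 5 (0.0842) and 6 (0.0938). The call was kept without each of the other 6 arrays, including both replicates 3.

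**Figure D2:**
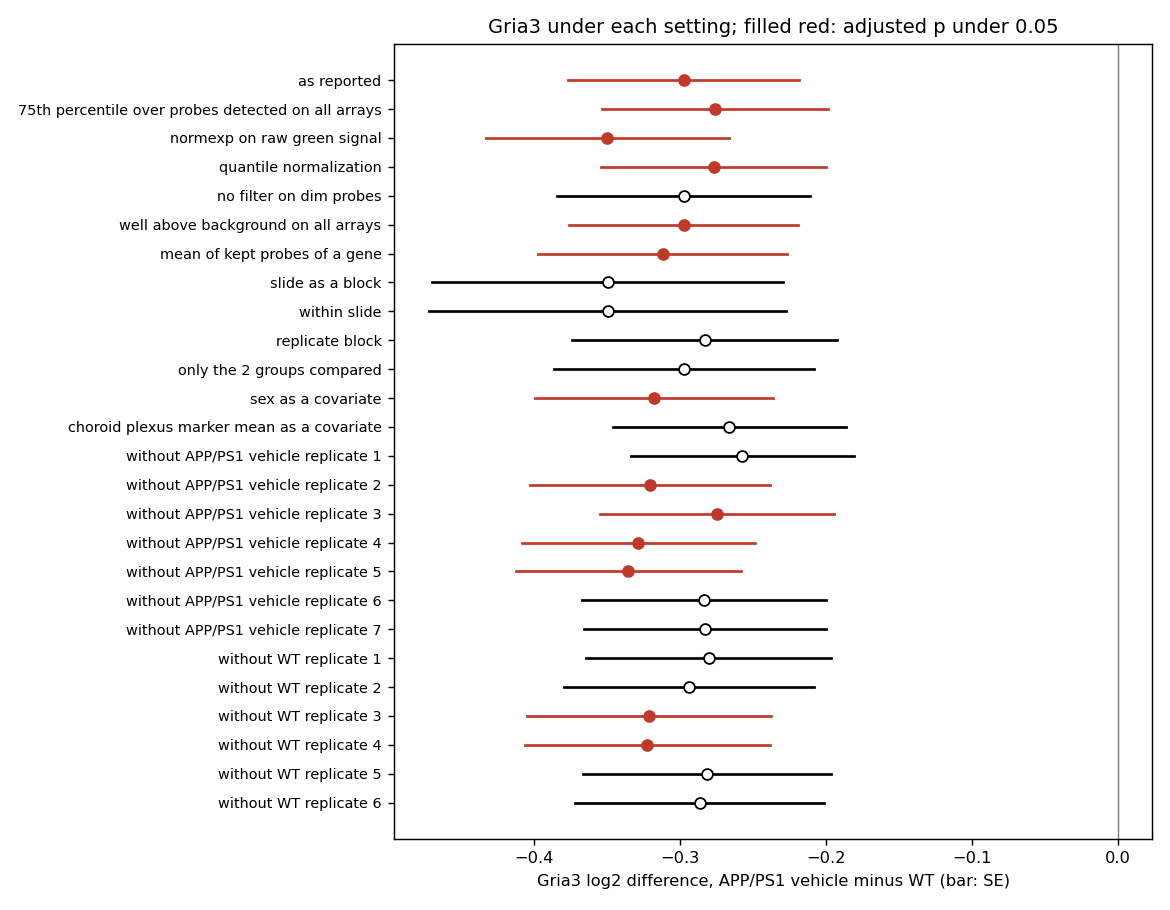
Gria3 log2 difference, APP/PS1 vehicle minus WT, as reported and under each alternative on the log2 scale (points) with its SE (bars); filled red points have an adjusted p under 0.05. All points lie below 0, between -0.35 and -0.26, and filled and open points are mixed.

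Gria4 encodes GluA4, an AMPA subunit of fast-spiking interneurons and of the developing hippocampus. WT arrays ran from 0.68 to 1.28 (median 1.02), APP/PS1 vehicle arrays from 0.07 to 1.09 (median 0.53) and UA arrays from 0.36 to 0.88 (median 0.75). In APP/PS1 vehicle mice 4 of 7 arrays lay below the lowest WT array and 1 lay above the WT mean. The log2 difference was -0.43 (SE 0.14, limma adjusted p = 0.0777), which did not pass. The other Gria4 probes lay in the same direction, at -0.58 for A_52_P279527 and -0.36 for A_52_P349182. In the fit over single probes the former passed (adjusted p = 0.0481), the latter did not (0.219), and the brightest stood at 0.0832. Gria4 passed over all genes without APP/PS1 vehicle replicate 5 (-0.51, adjusted p = 0.0232) and without WT replicate 3 (-0.49, 0.0404).

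**Figure D3:**
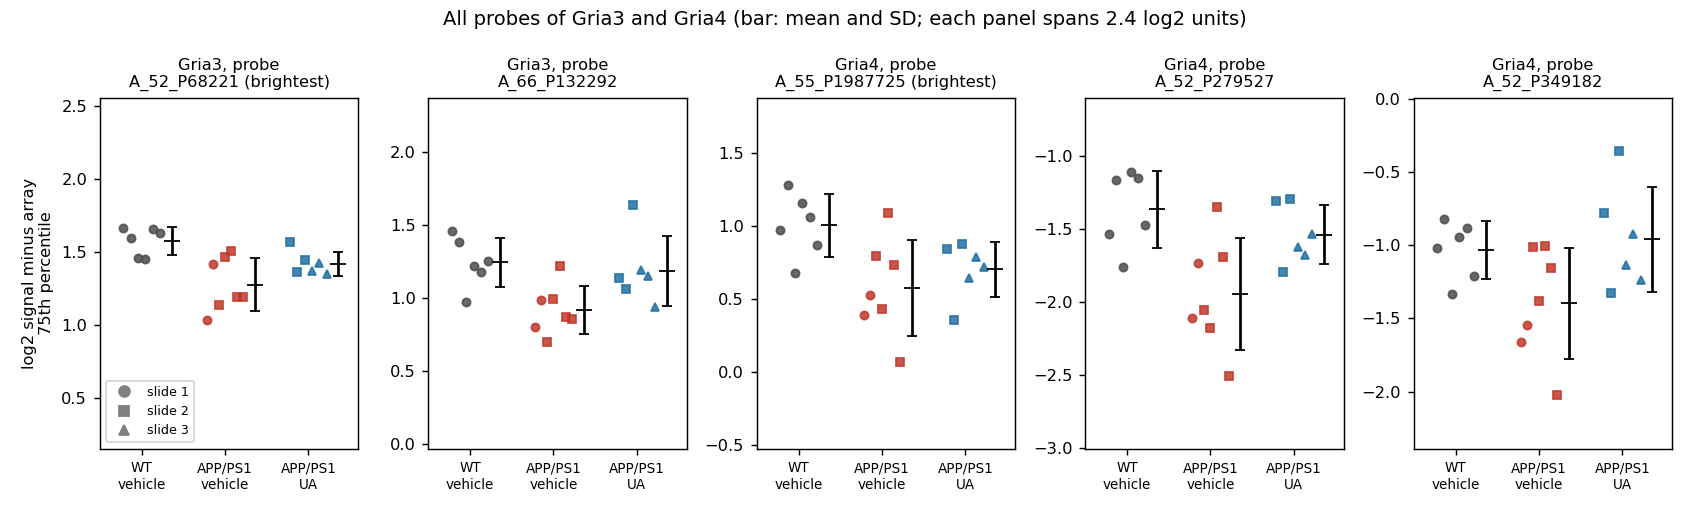
Each of the 2 Gria3 and 3 Gria4 probes on each array (log2 signal minus the array's 75th percentile), by group, with group mean and SD as bars and slide as marker shape. In all 5 panels the APP/PS1 vehicle mean lies below the WT mean, and the groups overlap.

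Gria2 encodes GluA2, the subunit that sets calcium permeability. It lay between 4.34 and 4.71 (median 4.51) in WT, between 4.02 and 4.51 (median 4.37) in APP/PS1 vehicle and between 4.35 and 4.67 (median 4.42) in UA arrays. All 7 vehicle arrays were below the WT mean and 3 were below the lowest WT array. The difference of -0.19 (SE 0.085) did not pass (limma adjusted p = 0.183), and a second, dimmer probe stood at 0.33. Gria1 encodes GluA1, the subunit whose phosphorylation and synaptic insertion accompany plasticity. It ran from 5.45 to 6.11 (median 5.54) in WT, from 4.76 to 5.98 (median 5.57) in APP/PS1 vehicle and from 5.35 to 5.84 (median 5.59) in UA arrays. The groups overlapped broadly, and the difference of -0.10 (SE 0.17, adjusted p = 0.720) became 0.03 without APP/PS1 vehicle replicate 3, the array at 4.76.

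Among the NMDA subunits Grin1, found in every NMDA receptor, lay between 1.57 and 1.87 (median 1.63) in WT and between 1.24 and 1.74 (median 1.59) in APP/PS1 vehicle arrays. The difference was -0.13 (SE 0.086, limma adjusted p = 0.381), and within slide 1 it was -0.0021. The second, dimmer Grin1 probe stood at 0.06 (SE 0.14). Grin2a encodes GluN2A, whose share rises as synapses mature, and Grin2b encodes GluN2B, which closes more slowly. Grin2a ran from 1.45 to 1.80 (median 1.59) in WT and from 0.76 to 2.01 (median 1.37) in APP/PS1 vehicle arrays. The vehicle group was thus wider on both sides, with 4 arrays below and 2 above the whole WT range, and the difference was -0.13 (SE 0.18, adjusted p = 0.671) or -0.01 without vehicle replicate 3. Grin2b ran from 1.21 to 1.77 in WT and from 1.23 to 1.94 in APP/PS1 vehicle arrays, with a difference of -0.02 (SE 0.12, adjusted p = 0.940, 95% interval -0.28 to 0.24), and 0.02 without vehicle replicate 3. The second, dimmer Grin2b probe stood at 0.06 (SE 0.12).

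Grin2c encodes GluN2C, an adult subunit found in cerebellar granule cells and in some interneurons and glia, and Grin2d encodes GluN2D, a subunit of interneurons with slow currents. These 2 were the subunits above WT, and neither passed. Grin2c lay between 1.69 and 2.06 (median 1.91) in WT and between 1.81 and 2.22 (median 2.06) in APP/PS1 vehicle arrays, a difference of 0.10 (SE 0.078, limma adjusted p = 0.459), or 0.06 without vehicle replicate 3. Its second probe stood at 0.17. Grin2d lay between 1.05 and 1.75 (median 1.41) in WT and between 1.47 and 2.76 (median 1.64) in APP/PS1 vehicle arrays. All 7 vehicle arrays were above the WT mean and 1 was above the highest WT array. That array, replicate 3 at 2.76, carries much of the difference, which was 0.36 (SE 0.16, adjusted p = 0.192) with it and 0.20 (0.182) without it.

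Grin3a encodes GluN3A, a subunit that binds glycine, lowers the calcium permeability of NMDA receptors and is most abundant in the young brain. It had the widest spread of the 10. WT arrays ran from 0.57 to 2.02 (median 1.93), APP/PS1 vehicle arrays from 0.34 to 1.86 (median 0.81) and UA arrays from 1.02 to 2.11 (median 1.85). Of the WT arrays 5 lay between 1.81 and 2.02 and replicate 3 lay at 0.57. The vehicle arrays were split, with replicates 1, 2, 4 and 7 between 0.34 and 0.81 and replicates 3, 5 and 6 between 1.52 and 1.86. The log2 difference between genotypes was -0.63 (SE 0.28, limma adjusted p = 0.182), and without WT replicate 3 it was -0.86 and passed (0.0411). Within slide 1 it was -1.02 (0.205).

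Grin3a and Gria4 varied together between arrays. Over the 45 pairs of subunits, each taken as deviations from its group means over 19 arrays, theirs was the only one to pass by both measures (Pearson's r = 0.891, permutation p = 2e-05, adjusted p = 0.0009; Spearman's rho = 0.891, permutation p = 3e-05, adjusted p = 0.0013). The p-values come from 100000 resamples within groups, 2-sided. Without the 2 arrays farthest from the median of Gria4, r was 0.875. Gria2 and Gria3 passed by Spearman's rho (0.674, permutation p = 0.0018, adjusted p = 0.041) and not by Pearson's r (0.643, permutation p = 0.0063, adjusted p = 0.071). For Grin3a and Gria4, r within slide 1 was 0.773 over 8 arrays (exact permutation p = 0.027) and rho 0.571 (0.17). Within slide 2, r of this pair was 0.971 over 8 arrays (exact permutation p = 0.0042) and rho 0.857 (0.019). Adjusted over both slides, the exact permutation p-values of r were 0.027 and 0.0084. The pair was picked from the 45 on these same arrays, so the within-slide values describe it and are not a separate test. The 3 arrays of slide 3 were too few.

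Choroid plexus and oligodendrocyte markers were high on the arrays low in Grin3a and Gria4, and pyramidal and granule cell markers tended the same way. The WT array lowest in Grin3a and Gria4, replicate 3, had the highest choroid plexus level of its group (2.85). The 4 vehicle arrays low in Grin3a had levels of 1.77 to 3.45, and the other 3 had -4.04, -1.31 and 2.04. UA replicates 5 and 6 had Grin3a at 1.96 and 1.74 beside choroid plexus levels of 2.12 and 2.92, so that a high choroid plexus level did not always accompany a low Grin3a level. The mean of 7 oligodendrocyte markers did not overlap between arrays low in Grin3a and the others, at a cut placed on these same arrays. It lay between 3.09 and 3.58 on the 7 arrays lowest in Grin3a (vehicle replicates 1, 2, 4 and 7, WT replicate 3 and UA replicates 2 and 4) and between 1.78 and 2.75 on the others, with UA replicates 5 and 6 at 2.15 and 2.30. By group that mean ran from 2.09 to 3.49 in WT, from 1.78 to 3.58 in APP/PS1 vehicle and from 1.96 to 3.36 in UA arrays. All 7 oligodendrocyte markers lay above WT in APP/PS1 vehicle mice (median 0.23), and none passed. All 10 choroid plexus markers lay above WT in APP/PS1 vehicle mice, with a median log2 difference of 1.60, and none passed. With their mean as a covariate the genotype difference of Grin3a went from -0.63 to -0.35 (limma adjusted p = 0.334) and that of Gria4 from -0.43 to -0.30 (0.125). Interneuron markers also lay below WT, 9 of 9, with a median of -0.30 and 1 called, the potassium channel gene Kcnc2 (-0.63, limma adjusted p = 0.0281). The part of the oligodendrocyte, interneuron, and pyramidal and granule cell markers in the result was not tested.

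**Figure D4:**
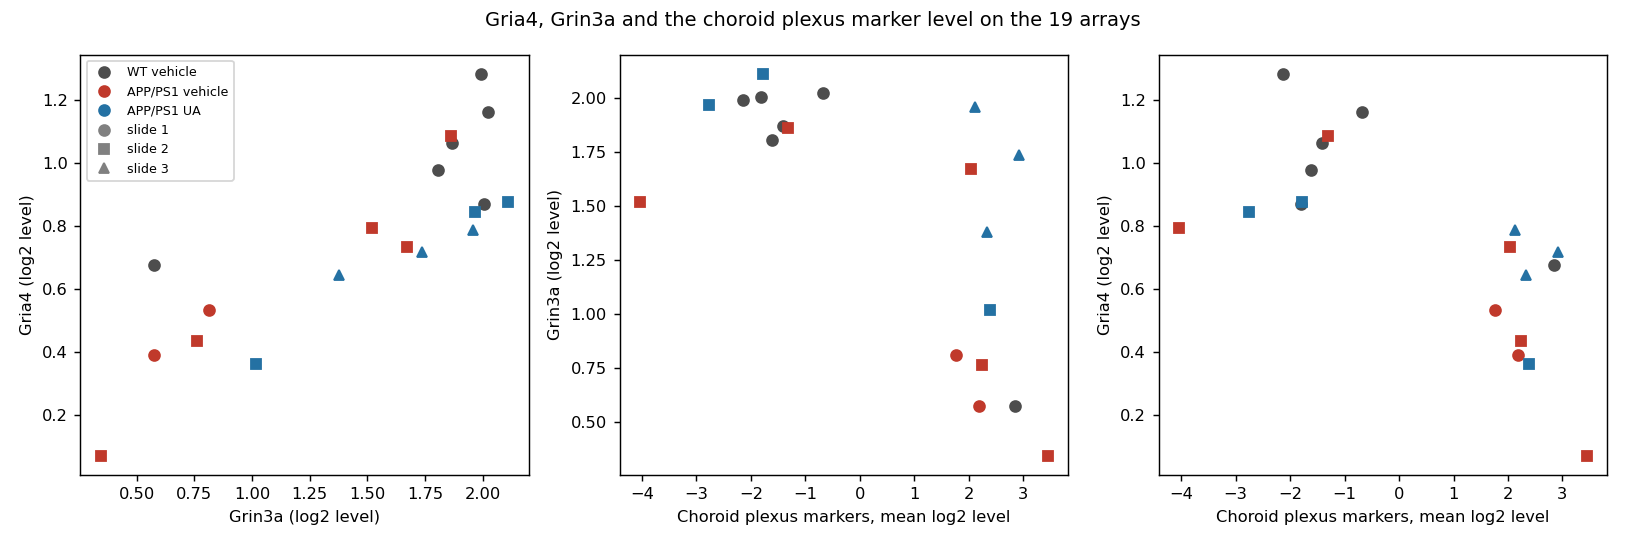
Levels on the 19 arrays of Gria4 against Grin3a (left), and of Grin3a (middle) and Gria4 (right) against the mean log2 level of 10 choroid plexus markers, with colour giving the group and marker shape the slide. Gria4 and Grin3a run together, and arrays low in both have choroid plexus levels above 1.7.

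UA was compared with vehicle in APP/PS1 mice to ask what differed with the compound. This comparison shares the APP/PS1 vehicle group with the one above, so opposite signs in the 2 are not independent. None of the 10 subunits passed, and neither did any gene of the 25599 (0% called), while 3952 genes (15.4%) and 1 subunit, Grin3a, had an unadjusted p under 0.05. All 4 AMPA subunits lay above vehicle, and 3 of the 6 NMDA subunits did, 7 of 10 in all, where 48.8% of all genes lay above vehicle. The count was 6 of 10 without vehicle replicate 3, where Gria1 stood at -0.09, or without UA replicate 1 or 2. It was 8 with normexp background correction, and 5 with the mean of a gene's probes, where Gria2 stood at -0.12 and Grin2b at -0.02. Over the 10 the range was -0.17 to 0.62 and the median 0.12, against -0.0051 over all genes. The genes at least as bright as the dimmest subunit had a median of 0.025.

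Gria3 stood at 1.42 ± 0.082 (SD, n = 6) in UA and 1.28 ± 0.18 (SD, n = 7) in vehicle mice, a log2 difference of 0.14 (SE 0.079, limma adjusted p = 0.391, 95% interval -0.02 to 0.31). All 6 UA arrays lay above the vehicle mean and within the vehicle range or just above it. The second Gria3 probe differed by 0.27 (SE 0.11) and did not pass in the fit over single probes (limma adjusted p = 0.264). Gria2 differed by 0.14 (SE 0.085, adjusted p = 0.429), or 0.09 without vehicle replicate 3, and its second probe by -0.37 (SE 0.24). Gria4 differed by 0.13 (SE 0.14, 0.674) and Gria1 by 0.04 (SE 0.17, 0.929). The 2 dimmer Gria4 probes stood higher, at 0.41 and 0.44, and did not pass in the fit over single probes (0.256 and 0.257). Grin3a was at 1.69 ± 0.42 (SD, n = 6) with UA and 1.08 ± 0.59 (SD, n = 7) with vehicle. Its difference of 0.62 (SE 0.28, adjusted p = 0.306) was the largest of the 10, with 5 of 6 UA arrays above the vehicle mean and 3 above the highest vehicle array.

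Grin1 lay in the other direction. It was at 1.38 ± 0.10 (SD, n = 6) with UA and 1.54 ± 0.19 (SD, n = 7) with vehicle, a log2 difference of -0.16 (SE 0.086, limma adjusted p = 0.382), with all 6 UA arrays below the vehicle mean. Within slide 2, which held both groups, the difference was -0.02 (0.978). Grin2a differed by 0.29 (SE 0.18, adjusted p = 0.445) and Grin2b by 0.11 (SE 0.12, 0.693), or by 0.17 and 0.07 without vehicle replicate 3. The second, dimmer Grin2b probe differed by -0.14 (SE 0.12). Grin2d differed by -0.17 (SE 0.16, 0.632), or by -0.0060 without vehicle replicate 3, and Grin2c by -0.06 (SE 0.078, 0.744), or by -0.02 without it.

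UA-treated APP/PS1 mice were set against WT mice to ask what still differed from WT after treatment. None of the 10 subunits passed. Of all genes 23 were called, 0.0898%, all of them higher in UA mice. All 4 AMPA subunits and 2 of the 6 NMDA subunits lay below WT, as did 52.9% of all genes. The median was -0.03 over the 10, -0.01 over all genes and -0.025 over genes at least as bright as the dimmest subunit. No slide held both groups, so slide and group can be separated only through the vehicle arrays.

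Grin1 was the only subunit whose groups did not overlap in this comparison. UA arrays ran from 1.24 to 1.50 (median 1.39) and WT arrays from 1.57 to 1.87 (median 1.63), so all 6 UA arrays lay below all 6 WT arrays, an arrangement found for 0.477% of genes. The log2 difference was -0.28 (SE 0.090, limma unadjusted p = 0.00522, adjusted p = 0.375), and 4.14% of genes lay below WT with an unadjusted p under 0.05. With slide as a block it was -0.03. By slide, Grin1 averaged 1.67 in both the WT and the vehicle arrays of slide 1, 1.49 in the vehicle and 1.47 in the UA arrays of slide 2, and 1.30 in the UA arrays of slide 3. The vehicle arrays ran from 1.59 to 1.74 on slide 1 and from 1.24 to 1.73 on slide 2. The UA arrays ran from 1.42 to 1.50 on slide 2 and from 1.24 to 1.36 on slide 3. The part of slide in the Grin1 difference was not tested. A second Grin1 probe stood at -0.19 (SE 0.15).

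For the remaining subunits against WT, Gria4 stood at -0.30 (SE 0.14, limma adjusted p = 0.576) and Gria3 at -0.16 (SE 0.082, 0.613). The other Gria4 probes stood at -0.17 (SE 0.17) and 0.08 (SE 0.18), so its probes differed in sign here. At the brightest probes 5 of 6 UA arrays lay below the lowest WT array in Gria3, and 2 did in Gria4. The second Gria3 probe stood closer to WT, at -0.06 (SE 0.11). Gria2 stood at -0.05 and Gria1 at -0.06. Grin2d stood at 0.19, Grin2a at 0.15, Grin2b at 0.09 and Grin2c at 0.04, and the second Grin2b probe at -0.09 (SE 0.13). With slide as a block Gria1 stood at 0.3821, Gria2 at 0.0235, Grin2a at -0.0078 and Grin2b at -0.0855, so no direction can be given for these. Grin3a was at -0.02 (SE 0.29), but at 0.26 with the choroid plexus level as a covariate. Its sign also reversed in 7 of 12 fits without single arrays, so no direction can be given for it either.

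**Figure D5:**
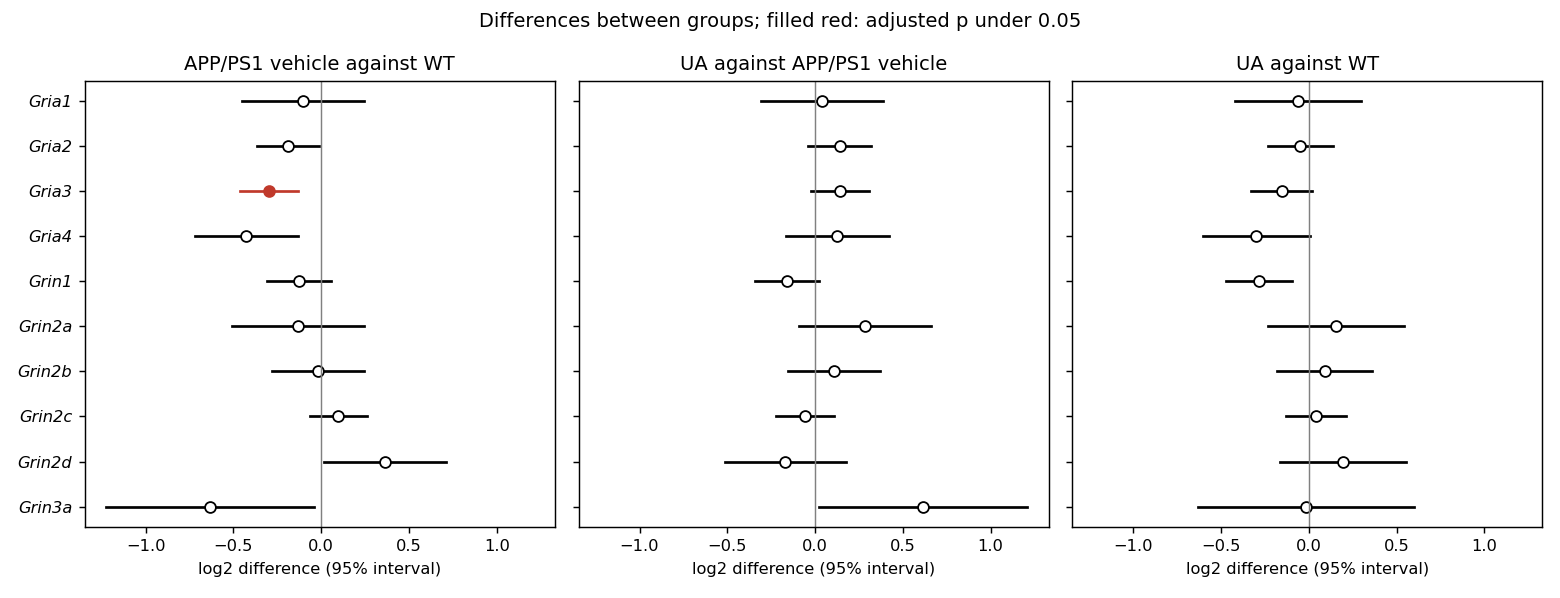
Log2 difference of each subunit in the 3 comparisons (points) with its 95% interval (bars); a filled red point has an adjusted p under 0.05. Only Gria3 in APP/PS1 vehicle against WT is filled, and the intervals of Grin3a are the widest.

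The genes around these receptors gave few calls between APP/PS1 vehicle and WT mice: 5 of 92 measured in 6 lists, 5.43%, near the 5.05% of all genes. All 5 were lower, where calls over all genes split into 584 lower and 710 higher. Of the 92, 71 lay below WT, as did 48.6% of all genes. Genes at least as bright as the dimmest subunit also leaned below WT, with a median log2 difference of -0.052 against 0.0086 over all genes. Of 7 other ionotropic glutamate receptor genes measured (kainate, delta and the remaining NMDA subunit) Grik3 fell, a kainate subunit (log2 difference -0.56, SE 0.16, limma adjusted p = 0.0473). Of 20 auxiliary genes Olfm1 fell, whose secreted product binds AMPA receptors (-0.28, SE 0.075, adjusted p = 0.0388). Of 24 postsynaptic scaffold genes Akap5 fell, which anchors kinases and calcineurin beside the receptors (-0.52, SE 0.13, adjusted p = 0.0305). Of 24 kinase, phosphatase and trafficking genes 2 fell. Nsf, an ATPase that binds GluA2 and maintains it at the surface, was at 6.82 ± 0.18 (SD, n = 6) in WT and 6.35 ± 0.25 (SD, n = 7) in APP/PS1 vehicle mice, a difference of -0.47 (SE 0.11, adjusted p = 0.0216). Prkaca, a protein kinase A catalytic subunit, differed by -0.28 (SE 0.077, adjusted p = 0.0448). The list medians ran from -0.21 to -0.09.

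The 7 metabotropic receptor genes all lay below WT, with a median of -0.16, and none passed. The presynaptic receptors Grm8 and Grm7 stood at -0.57 (SE 0.20, limma adjusted p = 0.0943) and -0.25 (0.254). Of 10 genes for co-agonist and glutamate transport none passed, and 2 astrocytic genes had the smallest p, both above WT. These were Glul, glutamine synthetase, at 0.37 (SE 0.12, adjusted p = 0.0734) and Slc7a10, a transporter of D-serine and glycine, at 0.34 (SE 0.12, 0.0946). They passed without WT replicate 3 (0.0265 and 0.0202), and Grm8 passed without vehicle replicate 3 (0.0461) or 5 (0.0479). Microglia markers lay above WT in 8 of 8 and 5 rose, 3 of 8 astrocyte markers rose, and neuron markers lay below WT in 8 of 9 with none passing (median -0.28). Their part in the receptor gene values was not tested.

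Most of these calls also depended on single arrays. Without single arrays the limma adjusted p of Nsf reached 0.0585 at most and the call was kept in 10 of 13 fits, ending without WT replicates 2, 5 and 6. Akap5 and Olfm1 each kept their call in 5 of 13 such fits (adjusted p up to 0.0814 and 0.0995), Grik3 in 4 (up to 0.0977) and Prkaca in 3 (up to 0.107). Over the other 13 alternatives the calls were kept in 7 for Nsf (adjusted p up to 0.431), 7 for Akap5 (0.206), 5 for Prkaca (0.306), 3 for Olfm1 (0.343) and 2 for Grik3 (0.299), so most alternatives ended the last 3. Within slide 1 the differences were -0.80 for Nsf, -0.56 for Akap5, -0.53 for Grik3, -0.33 for Olfm1 and -0.33 for Prkaca, and none passed there, while Nsf passed with slide as a block (0.0107). With the mean of a gene's probes, Nsf stood at -0.16 (0.431) and Olfm1 at -0.13 (0.343).

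With UA no gene of these 6 lists passed against vehicle. Nsf stood at 0.39 (limma adjusted p = 0.143), with UA arrays at 6.74 ± 0.12 (SD, n = 6), and under normexp background correction it passed (0.40, 0.0277). Camk2a, the kinase that phosphorylates GluA1 in plasticity, stood below vehicle at -0.36 (0.216). Among scaffolds Akap5 was at 0.39 (0.193) and Dlgap1 at 0.18 (0.252). The kainate receptor genes Grik1 and Grik3 were at 0.47 (0.170) and 0.35 (0.303), and Neto1 and Neto2, which encode auxiliary proteins of kainate receptors, at 0.51 (0.237) and 0.19 (0.325). Grm8 and Grm7 were at 0.45 (0.284) and 0.27 (0.333), the vesicular transporter gene Slc17a6 at 0.60 (0.392) and Glul at -0.22 (0.376). The directions were thus mostly above vehicle, in 67 of 92 genes, where 48.8% of all genes lay above vehicle. Genes at least as bright as the dimmest subunit had a median of 0.025, against -0.0051 over all genes. This comparison shares its vehicle arrays with the one against WT.

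Against WT no gene of these lists passed in UA mice either. Grip2, a scaffold that binds GluA2, stood at -0.42 (limma adjusted p = 0.388) and Dlg3 at -0.17 (0.629). The kinase gene Src stood at -0.23 (0.403), and the auxiliary genes Olfm1 and Frrs1l at -0.14 (0.632) and -0.23 (0.691). Above WT stood the transporter genes Slc7a10 at 0.34 (0.461) and Slc1a2 at 0.38 (0.575) and the kainate receptor gene Grik2 at 0.25 (0.550). Grid1 was at -0.17 (0.703), and the metabotropic receptor genes Grm2 and Grm4 at -0.25 (0.614) and -0.18 (0.738), the last of them at 0.12 with slide as a block.

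The genes whose levels ran most like that of Gria3 over the 19 arrays, among 14993 named genes, were Usp32 (Pearson's r = 0.909), Atmin (0.883) and Clstn1 (0.880), and their log2 differences between APP/PS1 vehicle and WT were -0.21, -0.24 and -0.31. For Gria2 they were Tmem39b (0.861), Arid1b (0.849) and Cnot4 (0.847). For Grin1 they were Zbtb7a (0.816), Npy (0.804) and Clasp2 (0.797). These values share arrays, slides and scaling, and each is the highest of many, so they are a description only.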

How the data were processed

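Cy3-labelled cRNA from 200 ng of total RNA was hybridised to 19 Agilent mouse arrays, per the labels. The authors deposited scanner files whose green intensity was background-subtracted and dye-normalised by Agilent Feature Extraction 12.0.3.1 (a 2-colour protocol), per the file headers, and not normalised between arrays. The deposited value table holds a score, the z-score of log10 green intensity (recomputed here to within 0.00500, column medians -0.28 to -0.17). The labels describe no red sample.

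Here 3671 control spots of 62976 and non-uniform spots were left out, spots of a probe were averaged, and log2 processed intensity was centred on each array's 75th percentile. Probes well above background on at least 6 arrays were kept. Accessions were named through a RefSeq table (GRCm38.p6), which gave 32994 probes a symbol and 23611 none. The brightest probe of a gene stood for it. Groups were compared in 1 limma fit (R 4.3.3, limma 3.58.1, data.table version 1.17.8), checked on simulated data, 2-sided, with Benjamini-Hochberg adjustment over 25599 genes. The number of arrays limits the precision.

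Named were all 10 subunits and, per list of related genes and comparison, up to 4 genes that passed, or else the 2 of smallest p. Not every gene this rule named is reported here. For likeness, 3 genes each were named for Gria3, Gria2 and Grin1. Members and lists were chosen with earlier results of these data known. Alternatives were other scalings, filters and probe summaries, slide, replicate number, sex and choroid plexus level as terms, fits within slides or of 2 groups, and leaving out each array. By sex-linked genes, female arrays numbered 1 of 6 in WT, 3 of 7 in APP/PS1 vehicle and 1 of 6 in UA mice.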

Additional observations from a re-analysis of the deposited data

Results flagged for a closer look

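In 3 of the 30 sets formed by 1 subunit in 1 group, a single array stood apart from the rest by Dixon's criterion, which chance alone meets in about 1 set in 20. Gria1 was at 4.76 in APP/PS1 vehicle replicate 3, and the nearest vehicle array was at 5.55. Grin2d was at 2.76 in the same array, and the nearest was at 1.71. Grin3a was at 0.57 in WT replicate 3, and the nearest WT array was at 1.81. In the red channel, for which the labels describe no sample, 7 of the 18 subunit probes were well above background on all 19 arrays.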

How the results depend on the processing

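No alternative gave a subunit a call in the opposite direction, and no alternative called a subunit in UA against vehicle or UA against WT. The number of subunits called between APP/PS1 vehicle and WT was 1, and 0 with the choroid plexus covariate, without a filter on dim probes, with only the 2 groups fitted, with the replicate block, with slide as a block and within slide. Leaving out single arrays gave 0 to 3. The number of genes called there was 1294, and 804 with the deposited value table, 353 without a filter, 426 with only the 2 groups, 1986 with sex as a covariate, 77 with slide as a block, 23 within slide and 346 with the replicate block. It was 391 to 2266 without single arrays (577, 813, 2010, 737 and 754 without vehicle replicates 1, 2, 5, 6 and 7, and 453, 2266, 716, 548 and 391 without WT replicates 2 to 6). Calls split into 710 higher and 584 lower, into 830 and 448 with the percentile over detected probes, and into 323 and 481 with the deposited table. For UA against vehicle the count was 0, and 1620 with normexp and 54 with the choroid plexus covariate. For UA against WT it was 23, and 14 with normexp, 42 with probes above background on all arrays, 4 with slide as a block and 12 with the replicate block, and 16 to 37 without single arrays (37 without UA replicate 5). Uncalled subunits changed sign as follows in APP/PS1 vehicle against WT. Gria1 was at 0.0629 with slide as a block and within slide, Gria2 at 0.0693 with the mean of probes, and Grin2c at -0.0039 with normexp. Grin2b was at 0.0022 with the percentile over detected probes, 0.0029 with quantile normalisation, 0.0183 with the mean of probes, 0.0004 with the replicate block and 0.0181 with the choroid plexus covariate. In UA against vehicle Grin2c was at 0.0131 with normexp, and Gria2 and Grin2b were at -0.1171 and -0.0182 with the mean of probes. In UA against WT, slide as a block gave Gria1 0.3821, Gria2 0.0235, Grin2a -0.0078, Grin2b -0.0855 and, of the listed genes, Grm4 0.1200, and the choroid plexus covariate gave Grin3a 0.2563. Without single arrays, ranges that crossed 0 were -0.1769 to 0.0270 (Gria1) and -0.0888 to 0.0299 (Grin2b) in vehicle against WT, -0.0913 to 0.1126 (Gria1) in UA against vehicle, and -0.1145 to 0.0269 (Gria1), -0.0061 to 0.0684 (Grin2c) and -0.2444 to 0.1187 (Grin3a) in UA against WT. Of 760 recomputed subunit values 708 kept their direction and their side of the threshold. Only 1 subunit result was called, so this count says little about calls. That call, Gria3 between genotypes, was kept in 7 of 13 alternatives and in 6 of 13 fits without single arrays. The cause of the changes in call and sign was not tested. Same-numbered replicates do not appear paired: their deviations correlated at -0.546 to 0.390 over 18 pairs, 8 of them above 0.1, against -0.571 to 0.526 over 102 other pairs, and the replicate block took the Gria3 call between genotypes to an adjusted p of 0.129 (limma). Within-slide values of UA against WT could not be had, since no slide held both groups. All 18 subunit probes were well above background on all arrays.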
